A study of Mus musculus with 16 samples.

Results

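Alox5ap, Alox5, Ltc4s, Ptgs1 and Hpgds, which encode enzymes or a partner protein of eicosanoid synthesis, and Dclk1, which encodes a kinase used as a marker of tuft cells, were followed across 4 populations of medullary thymic epithelial cells (mTEC). The 6 genes were fixed by name, and each was given every merged H3K4me2 peak that the deposited annotation assigns to it. This gave 25 of 29470 peaks outside the mitochondrial genome and 6 of 15739 genes with a peak: 8 peaks for Dclk1, 6 each for Alox5ap and Ptgs1, 2 each for Alox5 and Hpgds, and 1 for Ltc4s. H3K4me2, dimethylation of lysine 4 of histone H3, is a mark of promoters and enhancers. It was measured by high-throughput chromatin immunoprecipitation in sorted thymus cells of C57BL/6 mice (iChIP), with 2 libraries per population. All cells were CD45-negative and Epcam-positive. The mTEC-IV gate added low MHC class II, no Itgb4 and L1cam on the surface, the mTEC-I gate low MHC class II with Itgb4, the mTEC-II gate high MHC class II, and the mTEC-III gate Ly6D. Ages and pooling of the mice are not stated in the labels. Nor do these say whether 2 replicates are separate animals, and the p-values therefore rest on the spread between libraries, which may be technical.

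Tuft cells are rare chemosensory epithelial cells that use taste signalling and depend on the transcription factor POU2F3. They are known as an epithelial source of eicosanoids, lipid mediators made from arachidonic acid. In the leukotriene branch ALOX5 (5-lipoxygenase) oxidises arachidonic acid presented by ALOX5AP (also called FLAP), and LTC4S then joins glutathione to leukotriene A4 to give leukotriene C4. In the prostaglandin branch PTGS1 (cyclooxygenase 1) makes prostaglandin H2, which HPGDS, the haematopoietic type of prostaglandin D synthase, turns into prostaglandin D2. Thymus medulla holds cells of the tuft type.

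The libraries held from 1702103.5 to 15412132.5 tags, of which 31.9% to 35.4% lay in peaks. The shallowest was mTEC-I replicate 2, in which 1 tag is worth a level of 5.88 and 1474 peaks stood at 0. At this depth a peak at 0 could have a level as high as 17.6 (3 tags, counting error only). The population differences below are given as log2 changes of (level + 1), where a level is in tags per 10000000 tags of the library, with the standard error (SE) and the Benjamini-Hochberg adjusted p of limma, called below 0.05. L1cam, a gene of the mTEC-IV gate, had a level of 191 ± 13.2 (SD, n = 2) in mTEC-IV, against means of 67.8 ± 20.4 (mTEC-I), 59.8 ± 3.47 (mTEC-II) and 47.6 ± 6.72 (mTEC-III). H2-Aa, an MHC class II gene, had 242 ± 0.41 in mTEC-IV, against 444 ± 17.5 (mTEC-I), 402 ± 5.81 (mTEC-II) and 357 ± 42.1 (mTEC-III), so its mark was highest in a population gated for low MHC class II. Itgb4 had 224.5 ± 0.59 in mTEC-IV, against 308 ± 32.2 (mTEC-I), 241 ± 1.48 (mTEC-II) and 225 ± 12.7 (mTEC-III), so that mTEC-IV, gated for no Itgb4, stood beside mTEC-III. Epcam, an epithelial gene of all gates, had 1116 ± 35.1 in mTEC-IV, against 836 ± 13.9 (mTEC-I), 855 ± 11.5 (mTEC-II) and 968 ± 118.6 (mTEC-III). In sorted bulk populations, more cells that carry the mark and more mark per cell cannot be told apart.

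All 6 genes carried more H3K4me2 in mTEC-IV than in the mean of the other 3 populations, summed over the peaks of each gene. Over all 15738 genes tested, 20.4% were called higher in mTEC-IV and 12.6% lower. With totals in peaks made equal between libraries, the numbers over all genes were 2633 higher and 3324 lower, against 3214 and 1988 as deposited, and the 6 genes were called higher under either scaling. The median log2 change of the 6 was 1.69, beside 0.02 over all genes.

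In the leukotriene branch, the gene sum of Alox5ap was at levels of 731 and 725 in the mTEC-IV libraries, against 296 and 308 (mTEC-I), 253 and 226 (mTEC-II), and 154 and 169.6 (mTEC-III). Alox5 stood at 460.2 and 479.7 in mTEC-IV, against 195 and 135 (mTEC-I), 76.6 and 72.9 (mTEC-II), and 63.7 and 63.6 (mTEC-III). For these 2 genes the mTEC-IV libraries lay far above the other 6, and mTEC-I came next. Ltc4s stood at 261 and 268 in mTEC-IV, against 166 and 164.5 (mTEC-I), 165 and 161 (mTEC-II), and 199.97 and 192 (mTEC-III). Its groups did not overlap either, but its mTEC-IV mean was only 1.51 times that of the other 6 libraries. The ratio was 4.65 for Alox5 and 3.10 for Alox5ap. In mTEC-IV 95.9% of the Alox5 sum and 55.6% of the Alox5ap sum lay in a start-site peak merged from the authors' mTEC-IV list alone. Such a peak is in the table through the population where it was high. Of the smaller Alox5ap peaks, 2 came from that list alone as well. The changes of these 2 genes are therefore given as descriptions, with no p. On the log2 scale they were 2.34 ± 0.13 (SE) for Alox5 and 1.68 ± 0.08 for Alox5ap. The change of Ltc4s was 0.60 ± 0.09 (adjusted p = 1.1e-04). Ltc4s thus had the smallest change of the 6, with a 95% interval of 0.40 to 0.80 that does not reach the lowest bound of any other member, 1.27 for Dclk1.

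In the prostaglandin branch, Ptgs1 stood at 693 and 788 in mTEC-IV, against 236 and 173 (mTEC-I), 195 and 201 (mTEC-II), and 153 and 171 (mTEC-III). Hpgds stood at 555 and 508 in mTEC-IV, against 142 and 120.4 (mTEC-I), 177 and 175 (mTEC-II), and 173 and 203 (mTEC-III). The lowest mTEC-IV library was above the highest of the other 6 for either gene. The log2 change was 1.98 ± 0.11 for Ptgs1 (SE, adjusted p = 1.6e-09) and 1.70 ± 0.10 for Hpgds (adjusted p = 3.4e-09). Dclk1 had 1054 and 1115 in mTEC-IV, against 513 and 535 (mTEC-I), 395 and 396 (mTEC-II), and 334 and 330.3 (mTEC-III). Its libraries separated by population without overlap, and its log2 change in mTEC-IV was 1.40 ± 0.06 (adjusted p = 2.0e-10). The start-site peak, merged from several lists, held 62.7% (Ptgs1), 91.4% (Hpgds) and 66.8% (Dclk1) of the mTEC-IV sum. The sums of Ptgs1, Hpgds and Dclk1 also hold smaller peaks from the mTEC-IV list alone, and to that extent their changes are descriptions. For each of the 6 genes both mTEC-IV libraries lay above all other 6, as they did for 18.4% of all genes.

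The level of the 6 genes per kilobase of peak ran from 49.3 (Dclk1) to 71.2 (Hpgds) in mTEC-IV. Elsewhere it ran from 14.6 to 40.2 (mTEC-I), from 9.19 to 39.6 (mTEC-II) and from 7.83 to 47.6 (mTEC-III). The top of each of these 3 ranges was Ltc4s, whose single peak carried 40.2, 39.6 and 47.6 per kilobase there, against 64.3 in mTEC-IV.

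**Figure D1:**
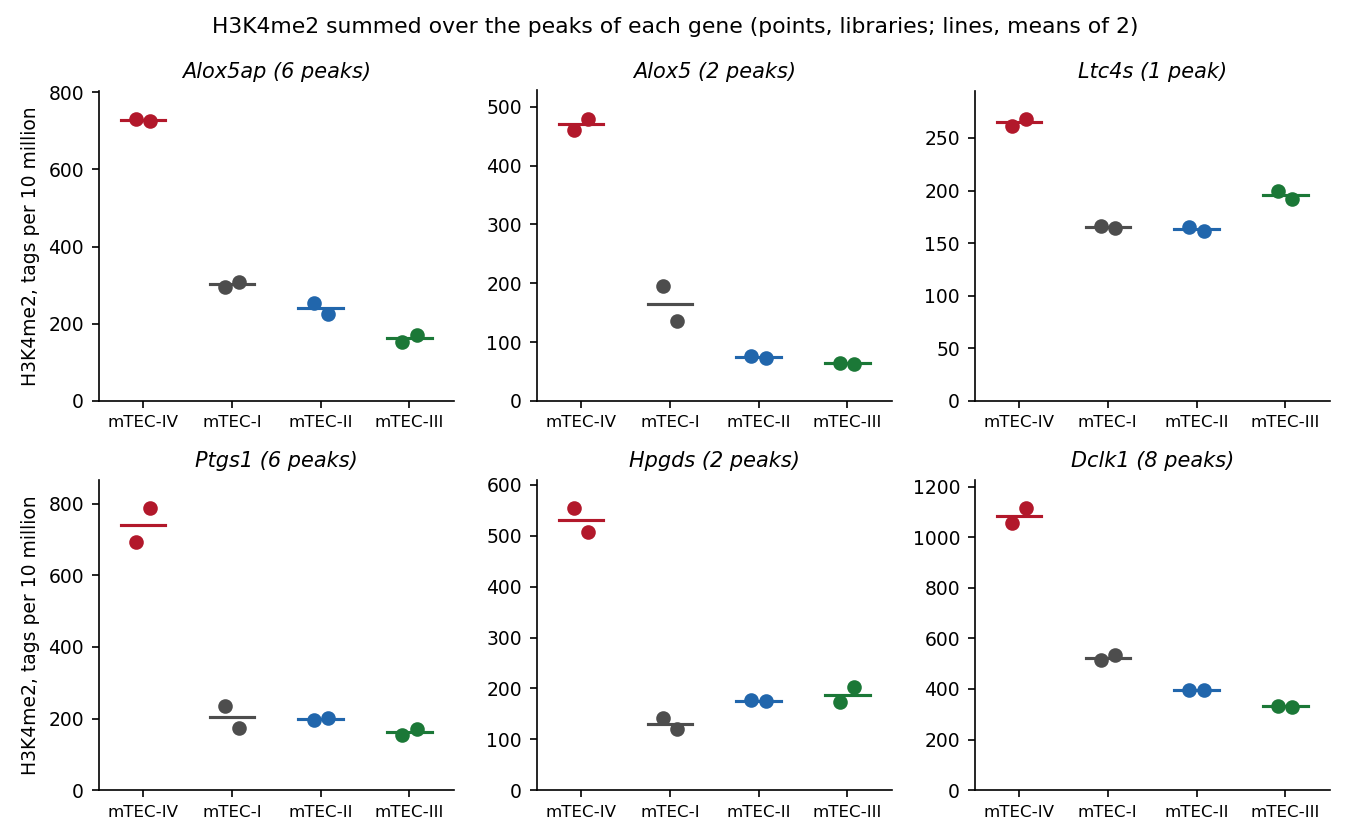
H3K4me2 level of each gene, in tags per 10000000 summed over its peaks, for the 8 libraries (points) and the mean of each population (lines). In every panel both mTEC-IV libraries lie above the other 6, by the least for Ltc4s, where 261 and 268 stand against at most 199.97.

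Every one of the 6 genes had 1 wide peak over its start site, which held most of its level in mTEC-IV, from 55.6% for Alox5ap to all of it for Ltc4s. These peaks were 4116 to 11998 bases wide, wider than 85.7% to 99.7% of all peaks, while the other 19 peaks of the 6 genes were 0.89 to 2.54 kb wide. The median of all peaks was 2.14 kb. Each reached further into the gene than before it. The Alox5ap peak at chr5:150076365-150082849 (mm9, plus strand) ran from 0.21 kb before the start to 6.27 kb after it. The Alox5 peak at chr6:116405814-116411402 (mm9, minus strand) likewise ran from 0.21 kb before to 5.38 kb after the start. The Ltc4s peak lay at chr11:50049012-50053127 (mm9, minus strand), from 1.09 kb before to 3.02 kb after. The Ptgs1 peak at chr2:36085145-36092907 (mm9, plus strand) ran from 0.80 kb before to 6.96 kb after. The Hpgds peak at chr6:65089748-65095730 (mm9, minus strand) ran from 1.01 kb before to 4.98 kb after. The widest was that of Dclk1 at chr3:55045037-55057034 (mm9, plus strand), which covered 1.41 kb before and 10.59 kb after the more upstream start of the gene. By its centre each of these peaks is annotated to an intron, the second for Ptgs1 and the first for the others.

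The start-site peaks of Alox5ap and Alox5 were low outside mTEC-IV. The Alox5ap peak held 405 and 404 in mTEC-IV, against 17.0 and 38.2 (mTEC-I), 36.01 and 29.6 (mTEC-II), and 15.8 and 17.7 (mTEC-III). The Alox5 peak held 442 and 459 in mTEC-IV, against 51.8 and 29.4 (mTEC-I), 45.1 and 43.7 (mTEC-II), and 28.4 and 22.96 (mTEC-III). The mTEC-IV mean was thus 15.7 times (Alox5ap) and 12.2 times (Alox5) the mean of the other 3 populations. These were log2 changes of 4.01 and 3.63. Both peaks were merged from the mTEC-IV list alone, so their changes are given as a description with no test. In the authors' deposited lists of peaks, 1 per population, neither start site was listed outside mTEC-IV, which restates the list these peaks were merged from.

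Over the other start sites the mark was present in all 4 populations and higher in mTEC-IV. The Ptgs1 peak held 434 and 495 in mTEC-IV, against 111 and 82.3 (mTEC-I), 90.2 and 108 (mTEC-II), and 66.9 and 71.8 (mTEC-III) (log2 change 2.40 ± 0.14 SE, adjusted p = 2.9e-07). The Hpgds peak held 493 and 478 in mTEC-IV, against 137 and 120.4 (mTEC-I), 161 and 161 (mTEC-II), and 163 and 189.6 (mTEC-III) (1.65 ± 0.10 SE, adjusted p = 3.4e-07). The Dclk1 peak held 704 and 745 in mTEC-IV, against 290.2 and 288 (mTEC-I), 187 and 209 (mTEC-II), and 134 and 142 (mTEC-III) (1.86 ± 0.08 SE, adjusted p = 5.4e-08). In none of the 3 did the mTEC-IV libraries overlap the other 6. The single Ltc4s peak is the gene sum given above.

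How much of each wide peak was listed also differed between populations. For Dclk1 the authors' deposited mTEC-IV list covers 98.0% of the merged peak, against 16.8% by the mTEC-I list, 18.5% by the mTEC-II list and 13.5% by the mTEC-III list. For Ptgs1 the figures in the authors' deposited lists are 100% for mTEC-IV, against 13.7% (mTEC-II) and 14.8% (mTEC-III), and for Hpgds 100% for mTEC-IV, against 38.6% (mTEC-II) and 39.1% (mTEC-III). Ltc4s again differed least in the authors' deposited lists, with 93.5% for mTEC-IV against 65.1% for mTEC-II and 64.6% for mTEC-III. None of these 3 start sites is in the mTEC-I list, which is the shortest, with 7036 peaks against 19321 to 23949 in the other 3 lists. Ordered by the authors' tag count, Dclk1 ranked 58 among the 22757 peaks of the mTEC-IV list, Hpgds 256, Ptgs1 305, Alox5 341, Alox5ap 503 and Ltc4s 2051 in that deposited table.

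The 250 bases before 5 of these start sites are shown because the wide peak of each gene covers its start. They are RefSeq sequences of GRCm38.p6 on the strand of the gene, matched by symbol, and no coordinate was converted between this build and mm9. For Dclk1 the more upstream of 2 starts is given. Capitals mark an octamer (ATGCAAAT, the site type bound by POU2F factors) or a RUNX core (TGTGGT), each searched on both strands.

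Hpgds (chromosome 6, minus strand): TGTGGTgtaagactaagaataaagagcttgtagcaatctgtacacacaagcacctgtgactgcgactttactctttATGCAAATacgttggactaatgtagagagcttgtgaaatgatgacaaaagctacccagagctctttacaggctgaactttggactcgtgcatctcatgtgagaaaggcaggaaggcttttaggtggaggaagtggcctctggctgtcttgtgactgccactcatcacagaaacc
Ptgs1 (chromosome 2, plus strand): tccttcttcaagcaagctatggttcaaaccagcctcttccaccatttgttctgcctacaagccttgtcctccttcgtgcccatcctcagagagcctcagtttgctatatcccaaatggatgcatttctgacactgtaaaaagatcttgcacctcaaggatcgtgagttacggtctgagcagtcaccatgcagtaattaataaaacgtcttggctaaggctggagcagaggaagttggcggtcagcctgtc
Alox5 (chromosome 6, minus strand): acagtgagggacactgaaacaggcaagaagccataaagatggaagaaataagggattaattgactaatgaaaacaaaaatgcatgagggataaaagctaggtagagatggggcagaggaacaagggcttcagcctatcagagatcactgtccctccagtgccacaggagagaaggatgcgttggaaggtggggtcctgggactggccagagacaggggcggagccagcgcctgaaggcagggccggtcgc
Ltc4s (chromosome 11, minus strand): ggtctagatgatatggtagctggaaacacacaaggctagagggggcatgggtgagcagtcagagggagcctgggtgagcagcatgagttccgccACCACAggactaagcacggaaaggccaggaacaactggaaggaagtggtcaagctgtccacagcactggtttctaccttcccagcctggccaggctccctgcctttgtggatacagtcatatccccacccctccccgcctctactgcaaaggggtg
Dclk1 (chromosome 3, plus strand): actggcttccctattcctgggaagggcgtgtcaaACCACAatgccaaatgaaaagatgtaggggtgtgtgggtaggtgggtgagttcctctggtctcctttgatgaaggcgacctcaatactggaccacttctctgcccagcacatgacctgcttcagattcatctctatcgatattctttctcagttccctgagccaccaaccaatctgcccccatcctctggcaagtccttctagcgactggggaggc

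The octamer stood in the Hpgds promoter alone, 174 to 167 bases before the start, out of 6 promoters of the members searched (5 shown and the second Dclk1 start). It occurred in 1.6% of all 32851 promoters of this length. The RUNX core stood in 3 of the 6 (Hpgds, Ltc4s and the upstream Dclk1 start), beside 14.05% of all promoters. A GFI1-type motif (AATCANNGC, in 2.87% of all promoters) and an ETS motif (CCGGAAGT, in 2.88%) were in none of the 6. The motifs did not overlap each other in these sequences. These matches are letters in a window and were not measured as binding.

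**Figure D2:**
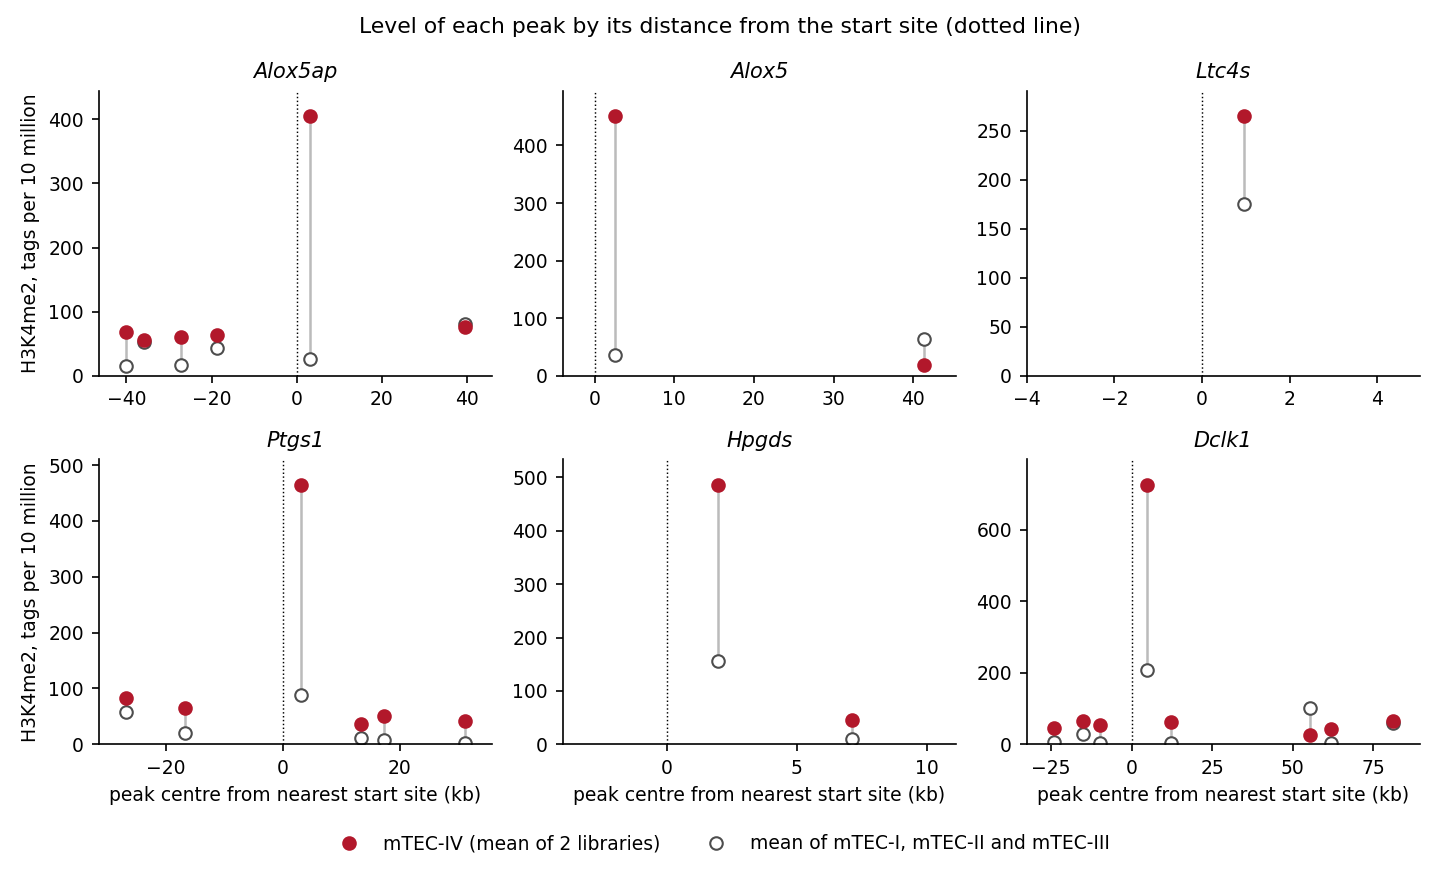
H3K4me2 level of every peak (vertical axis, tags per 10000000) by the distance of its centre from the nearest annotated start site (horizontal axis, kb). Filled points are the mTEC-IV mean of 2 libraries and open points the mean of the other 3 populations, joined by a grey line. The tall point beside each start site is the wide peak, from 265 for Ltc4s to 724 for Dclk1 in mTEC-IV. At 41.3 kb in Alox5 and 55.4 kb in Dclk1 the open point is the higher, as it is by a little at 39.4 kb in Alox5ap.

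Of all 25 peaks, 20 were called higher in mTEC-IV, 2 lower and 3 not called, beside 23.5% higher and 14.3% lower among the 29469 peaks tested. In 19 the mTEC-IV libraries lay above all of the other 6 and in 2 below all of them, beside 22.3% and 11.4% of all peaks. The merged table was made from the lists of the 4 populations, and 13 of the 25 peaks came from the mTEC-IV list alone, beside 13.5% of all peaks. A peak of that kind is in the table through the population in which it was high, so its log2 change is given below as a description, with no p. All 13 were past the threshold for a higher call. Of the 12 peaks that came from other lists or from several, 7 were higher, 2 lower and 3 not called, with a median log2 change of 0.57. The lower ones are the Alox5 peak in intron 7, from the mTEC-I list alone, and a Dclk1 peak from the mTEC-II and mTEC-III lists. Both are likewise descriptions.

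Alox5ap had a row of 4 peaks before its start site, of which the second was not called. The peak 40.1 kb before the start held 69.8 and 67.5 in mTEC-IV, against 8.24 to 32.3 (median 13.4) in the other 6 libraries (log2 change 2.21). The peak 27.2 kb before it held 62.7 and 59.7 in mTEC-IV, against 6.31 to 37.9 in the other 6 (median 15.8; log2 change 1.95). Both came from the mTEC-IV list alone. Between them, at 35.9 kb, the mTEC-IV libraries held 51.1 and 59.7, inside the 37.9 to 71.4 of the other 6 (0.08 ± 0.20 SE, 95% interval -0.34 to 0.51). The peak 18.8 kb before the start had 59.4 and 66.3 in mTEC-IV, overlapping 21.5 to 64.6 in the others (0.63 ± 0.22 SE, adjusted p = 0.0399), and this call ended under 7 alternatives, with adjusted p of up to 0.254. The last peak, 39.4 kb after the start, was highest in mTEC-I, with 83.6 and 67.5 in mTEC-IV, 128 and 99.9 (mTEC-I), 71.4 and 69.98 (mTEC-II), and 59.3 and 53.6 (mTEC-III). Against the mean of the other 3 it was not called (-0.03 ± 0.16 SE, 95% interval -0.38 to 0.32).

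The second Alox5 peak ran against the gene. It lay in intron 7 of 13, 41.3 kb after the start (chr6:116368583-116371123, mm9). It held 18.7 and 20.3 in mTEC-IV, against 143 and 106 (mTEC-I), 31.5 and 29.3 (mTEC-II), and 35.3 and 40.6 (mTEC-III). It was the only one of the 25 peaks merged from the mTEC-I list alone. Both mTEC-IV libraries lay below the other 6, and the log2 change was -1.38. As the peak is in the table through mTEC-I, where it was high, this change is a description with no p. Against mTEC-II alone the peak was not called (-0.614, adjusted p = 0.0921), and against mTEC-III alone it was lower in mTEC-IV (-0.925, adjusted p = 0.0142). This peak was the larger part of the mTEC-I gene sum, while in mTEC-IV 95.9% of the sum lay in the start-site peak.

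Ptgs1 had 2 peaks before and 3 after its start-site peak, all past the threshold for a higher call in mTEC-IV. The peak 16.8 kb before the start held 58.3 and 71.1 in mTEC-IV, against 17.0 to 27.8 (median 18.1) in the other 6 (log2 change 1.61, from the mTEC-IV list alone). The peak 26.8 kb before it carried signal in all populations, with 81.4 and 84.2 in mTEC-IV against 46.1 to 79.7 in the other 6 (0.53 ± 0.17 SE, adjusted p = 0.0247). This call ended under 5 alternatives, among them equal totals in peaks (0.44, adjusted p = 0.0524) and DESeq2 (0.51, adjusted p = 0.0904). The 3 peaks after it, in introns 8 and 9 and 31.1 kb from the start, held 35.7 to 57.4 in the mTEC-IV libraries, against 0 to 25.5 in the others. Their log2 changes were 1.89, 3.12 and 3.61 with a pseudocount of 1, against 0.92, 1.38 and 1.43 with a pseudocount of 20, so that the sizes depend on this setting. All 3 came from the mTEC-IV list alone, and the first was no longer past the threshold without mTEC-IV replicate 1 or 2. The second Hpgds peak, in intron 2, held 61.6 and 29.9 in mTEC-IV, against 0 to 15.6 in the other 6 (log2 change 2.51, or 1.14 with a pseudocount of 20). It too came from the mTEC-IV list alone, and without mTEC-IV replicate 1 it was 2.01 and no longer past the threshold.

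Around Dclk1, 4 of the 7 peaks besides the start-site peak came from the mTEC-IV list alone. They lay 24.2 and 9.8 kb before the start, in intron 2 and 61.7 kb after a second, downstream start, with 33.0 to 67.1 in the mTEC-IV libraries, against 0 to 11.8 in the others. Their log2 changes ran from 2.70 to 3.86, and from 1.27 to 1.77 with a pseudocount of 20. The one at 61.7 kb (3.18) was not past the threshold without mTEC-IV replicate 2 (2.86). The peak 15.1 kb before the start, listed in mTEC-II as well, held 65.4 and 66.9 in mTEC-IV against 17.6 to 39.99 in the other 6 (1.31 ± 0.23 SE, adjusted p = 9.4e-04).

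A peak in the body of Dclk1, 55.4 kb after the downstream start (chr3:55320223-55321911, mm9), was lower in mTEC-IV. It held 30.2 and 19.7 in mTEC-IV, against 99.8 and 123 (mTEC-I), 111 and 91.1 (mTEC-II), and 105 and 82.4 (mTEC-III). The other 3 populations overlapped, and the log2 change in mTEC-IV was -2.01 ± 0.20 (SE). The peak was merged from the mTEC-II and mTEC-III lists. It is thus in the table through populations where it was high, and this change is a description with no p. It and the Alox5 peak in intron 7 are the 2 of the 25 that the authors' deposited mTEC-IV list does not hold. The last Dclk1 peak, 81.0 kb after the downstream start, held 57.2 and 74.1 in mTEC-IV, within the 40.6 to 88.1 of the other 6 (0.22 ± 0.17 SE, 95% interval -0.15 to 0.60).

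**Figure D3:**
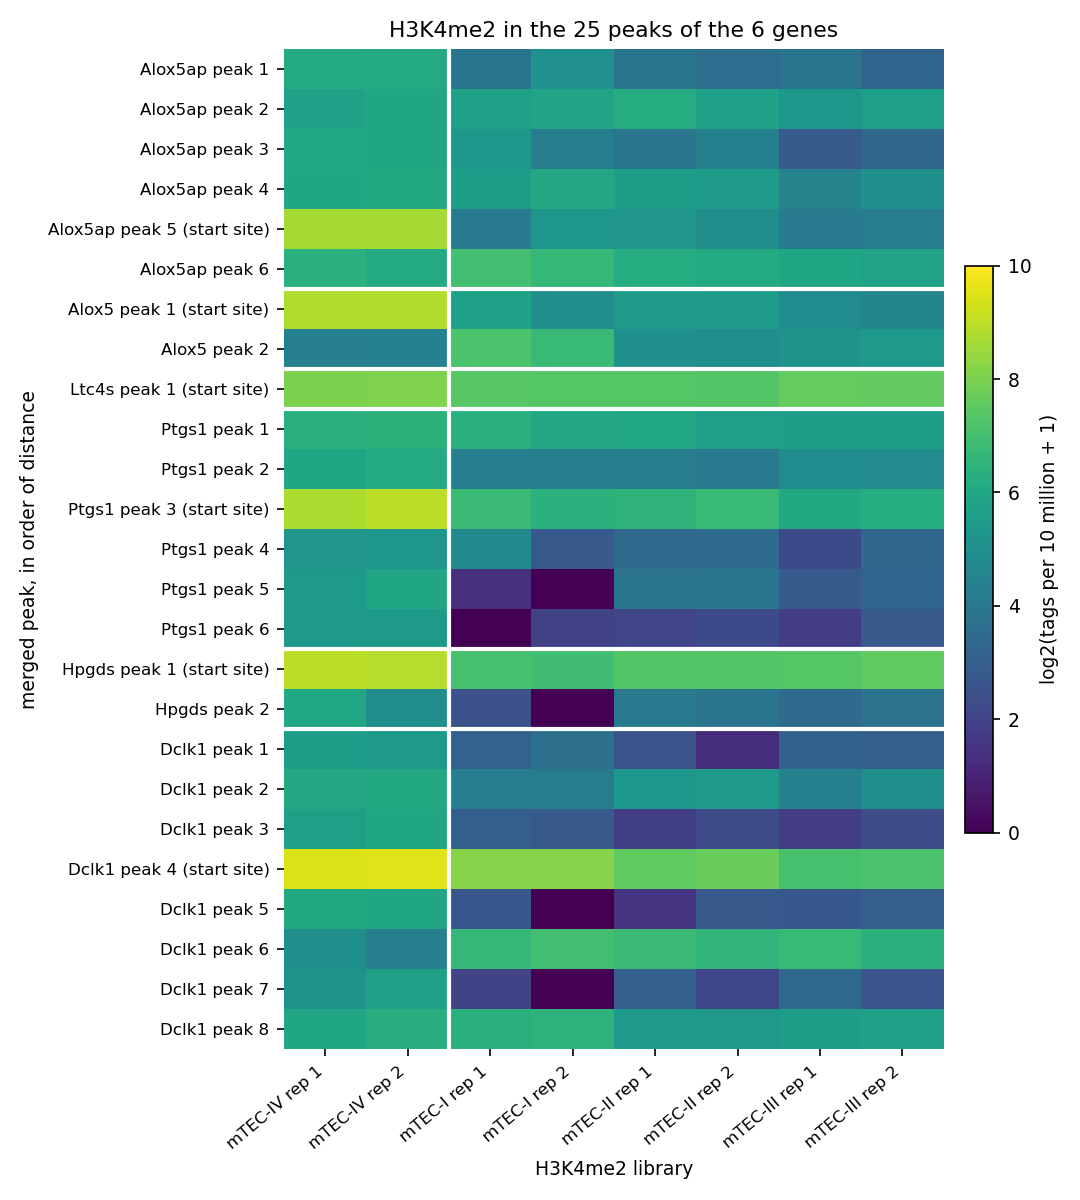
Level of each of the 25 peaks (rows, grouped by gene and ordered by distance along it) in each library (columns), as log2 of tags per 10000000 plus 1. The rows of the start-site peaks are bright in the mTEC-IV columns, and the Alox5 peak 2 and Dclk1 peak 6 rows are the ones in which both mTEC-IV columns are darker than the other 6.

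Each pair of populations was also compared, for the order of the 4. The pairs share populations, so their calls are not independent. All 18 values of the 3 pairs that include mTEC-IV were called higher, beside 20.5% of genes higher against mTEC-I, 16.4% against mTEC-II and 20.8% against mTEC-III. The smallest was that of Ltc4s over mTEC-III (0.43 ± 0.12 SE, adjusted p = 0.00811), which was not called without mTEC-III replicate 2 (0.40, adjusted p = 0.0503) or mTEC-IV replicate 2 (0.41, adjusted p = 0.0710). The largest was that of Alox5 over mTEC-III, 2.86 ± 0.17. The Alox5 and Alox5ap values rest mainly on start-site peaks that came from the mTEC-IV list alone, and to that extent they are descriptions.

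Among mTEC-I, mTEC-II and mTEC-III, 10 of 18 values were called, 2 higher and 8 lower in the later-numbered population. The 8 include the Alox5 values against mTEC-I, which rested on a peak from the mTEC-I list alone. The shares over all genes were 11.9% higher and 13.5% lower for mTEC-II against mTEC-I, 15.0% and 16.4% for mTEC-III against mTEC-I, and 10.7% and 11.6% for mTEC-III against mTEC-II. Alox5ap and Dclk1 stepped down in the order mTEC-I, mTEC-II, mTEC-III, with every step called. For Dclk1 mTEC-II differed from mTEC-I by a log2 change of -0.41 ± 0.08 (adjusted p = 0.00129), and mTEC-III differed from mTEC-II by -0.25 ± 0.08 (adjusted p = 0.0282). For Alox5ap the steps were -0.34 ± 0.10 (adjusted p = 0.0242) and -0.57 ± 0.10 (adjusted p = 0.00104). The smaller step of each gene ended under 7 alternatives, to adjusted p = 0.857 for Alox5ap with only peaks within 20 kb of the start and to 0.173 for Dclk1 without mTEC-II replicate 2. The larger Alox5ap step ended with the start-site peak alone (-0.93, adjusted p = 0.0532).

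Alox5 was lower in mTEC-II and mTEC-III than in mTEC-I (-1.11 ± 0.17 and -1.34 ± 0.17 SE). The neighbours mTEC-III and mTEC-II were not distinguished (-0.23, 95% interval -0.58 to 0.12). The order rested on the peak in intron 7. That peak came from the mTEC-I list alone and is in the table through the population where it was high. The changes against mTEC-I are therefore given as a description, with no p. With the start-site peak alone, mTEC-II differed from mTEC-I by 0.18 (adjusted p = 0.628) and mTEC-III differed from mTEC-I by -0.59 (adjusted p = 0.0926). With that peak mTEC-III was called lower than mTEC-II (-0.77, adjusted p = 0.0434). In the fit over all peaks the same change was not called (adjusted p = 0.0521).

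Hpgds ran the other way, lowest in mTEC-I. It was higher in mTEC-II than in mTEC-I by 0.43 ± 0.12 (adjusted p = 0.0208) and higher in mTEC-III than in mTEC-I by 0.52 ± 0.12 (adjusted p = 0.00473), while mTEC-III and mTEC-II were not distinguished (0.09, 95% interval -0.18 to 0.35). The first of these calls ended under 6 alternatives and the second under 2. For Ptgs1 and Ltc4s no pair among these 3 populations was called with limma on all libraries, but some were under other settings. Ptgs1 in mTEC-III against mTEC-I was -0.32 (95% interval -0.60 to -0.03, adjusted p = 0.0867), and was called lower with edgeR (-0.45, adjusted p = 0.00956) and without mTEC-I replicate 2 (-0.54, adjusted p = 4.2e-04), but it was -0.10 and not called without mTEC-I replicate 1. Ptgs1 in mTEC-III against mTEC-II was called lower under 4 alternatives (adjusted p of 0.0177 to 0.0382). Ltc4s in mTEC-III against mTEC-II was 0.26 (95% interval 0.02 to 0.51, adjusted p = 0.113), and was called higher with edgeR and without either mTEC-I library (adjusted p of 0.0477 to 0.0495).

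**Figure D4:**
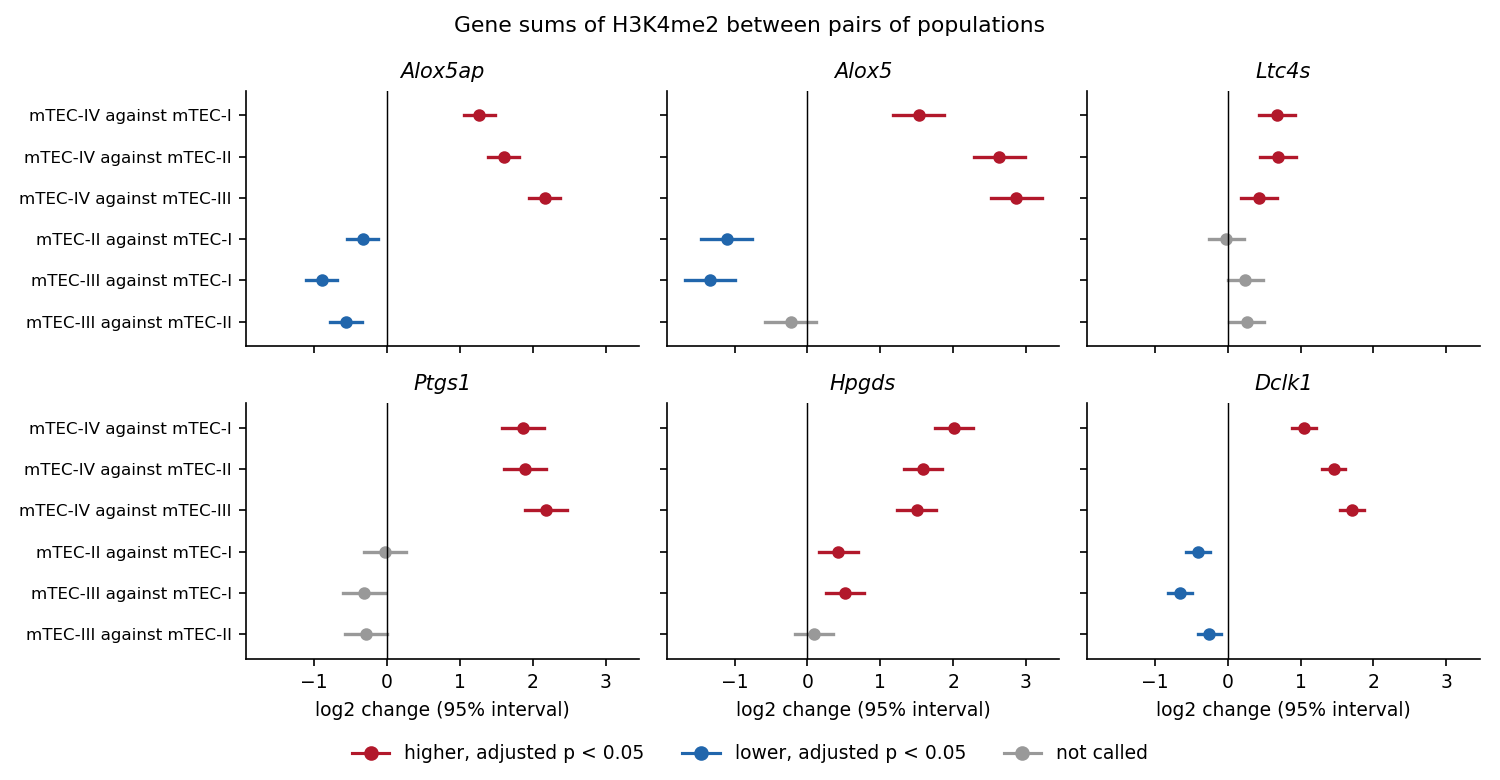
Log2 change of the gene sums for each pair of populations (points) with its 95% interval (lines), with red for higher, blue for lower and grey for not called. The 3 upper rows of every panel, mTEC-IV against each other population, lie right of 0. The lower rows differ between genes, being below 0 for Alox5ap and Dclk1 and above 0 for the called rows of Hpgds.

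Across the 8 libraries the 15 correlations between the 6 genes ran from 0.71 (Alox5ap with Ltc4s) to 0.99 (Alox5ap with Dclk1), with a median of 0.93 (Pearson r of log2 gene sums, n = 8 libraries). Hpgds lay nearer to Ltc4s (0.94) and Ptgs1 (0.93) than to Alox5 (0.75). All points share the same libraries and the same contrast of mTEC-IV with the rest, so these are descriptions. Among the other genes with a mean sum of at least 50, the closest to Alox5ap was Ntm (0.9955), to Alox5 Lypd1 (0.9949), to Ltc4s Ttc9 (0.9967), to Ptgs1 En2 (0.9980), to Hpgds Dhx40 (0.9973) and to Dclk1 Ociad2 (0.9983). The next 2 were Sema3a and Vezf1 for Alox5ap, Gm20139 and Unc5b for Alox5, Slitrk6 and Klf4 for Ltc4s, Gm4861 and B4galt6 for Ptgs1, Rps24 and Prkca for Hpgds, and Ackr4 and Fez1 for Dclk1. Closest to the mean profile of the 6 were Kcnj2, Mir7094-1, Chn2, Gm4861 and Arhgef10, with r from 0.9959 to 0.9974.

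Most of the other genes of the eicosanoid pathway were not higher in mTEC-IV. Of 79 further genes for phospholipases, lipoxygenases, synthases, receptors, transporters and breakdown enzymes, 62 had a peak. Of these 9 were higher in mTEC-IV (14.5%) and 16 lower (25.8%), beside 20.4% and 12.6% of all genes, with a median log2 change of -0.05. With totals in peaks made equal the count was 9 higher and 22 lower. No merged peak was annotated to Tbxas1, the thromboxane synthase, or to Cysltr1, a receptor for cysteinyl leukotrienes.

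Pla2g4a, which encodes the cytosolic phospholipase A2 that releases arachidonic acid, was higher in mTEC-IV. Its gene sum was 744 and 647 in mTEC-IV, against 275 and 220.3 (mTEC-I), 484 and 475 (mTEC-II), and 394 and 464 (mTEC-III) (log2 change 0.91 ± 0.09 SE, adjusted p = 1.4e-06). The largest gain in level lay at a start site inside the gene. A peak that reaches this start (chr1:151764958-151770228, mm9) held 393 and 330.4 in mTEC-IV, against 31.0 and 29.4 (mTEC-I), 116 and 95.5 (mTEC-II), and 50.5 and 76.5 (mTEC-III) (2.61 ± 0.17 SE, adjusted p = 7.4e-07). The peak at the outer start (chr1:151806121-151810183, mm9) held 111 and 118 in mTEC-IV, against 106 to 195 in the other 6, and was lower (-0.46 ± 0.13 SE, adjusted p = 0.0165). With the peak nearest to a start site alone, the gene was therefore called lower (-0.46, adjusted p = 0.0198). The peaks of Pla2g4a were looked at singly after this reversal had been seen. Smaller gains in level lay 27.4 kb (log2 change 0.80), 704.7 kb (2.86) and 740.0 kb (4.64) after a start site. At 740.0 kb, in an intergenic peak, the levels were 73.1 and 57.95 in mTEC-IV, against 0 to 4.54 in the other 6. The peaks at 3.9 and 81.0 kb were not called (-0.24 and -0.45).

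Among the other genes raised were Gstm7 (0.91 ± 0.28 SE, adjusted p = 0.0197), Alox8, a mouse lipoxygenase (0.86 ± 0.21, adjusted p = 0.0050), Mgst3, a microsomal glutathione S-transferase (0.77 ± 0.08, adjusted p = 2.2e-06), Cyp2j6 (0.71 ± 0.11, adjusted p = 8.4e-05) and Ptgr2, a prostaglandin reductase (0.68 ± 0.11, adjusted p = 1.4e-04). Alox8 overlapped mTEC-II and mTEC-III, with 102 and 108 in mTEC-IV, against 23.99 and 11.8 (mTEC-I), 107 and 108 (mTEC-II), and 103 and 100.1 (mTEC-III). The calls of Gstm7 and Alox8 ended without either mTEC-IV library (adjusted p of 0.0547 to 0.192), that of Gstm7 also without either mTEC-II library (adjusted p = 0.0520 and 0.0682), and those of Mgst3 (0.03, adjusted p = 0.858) and Ptgr2 (0.18, adjusted p = 0.300) with the peak nearest to the start.

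None of the other named synthases and oxygenases was called higher with limma on all libraries. Ptgs2, the inducible cyclooxygenase, was lower, with 222 and 201 in mTEC-IV, against 195 to 320.3 in the other 6 (-0.31 ± 0.10 SE, adjusted p = 0.0226), a call that ended without either mTEC-IV library (adjusted p = 0.0630 and 0.255). Alox15, a lipoxygenase of another branch, was lower, with 139.7 and 121 in mTEC-IV against 178 to 259 in the other 6 (-0.69 ± 0.10 SE, adjusted p = 8.3e-05). Lta4h, which makes leukotriene B4, had 135 and 157 in mTEC-IV against 138 to 177 in the other 6 (-0.15 ± 0.12 SE, 95% interval -0.39 to 0.10). Ptges, a prostaglandin E synthase, differed by -0.17 ± 0.16 (95% interval -0.50 to 0.16). It was called lower with edgeR (-0.25, adjusted p = 0.0340), without mTEC-I replicate 2 (-0.29, adjusted p = 0.0223) and with the peak nearest to the start (-0.54, adjusted p = 0.0234). Mgst2, a relative of Ltc4s, differed by 0.08 ± 0.09 (95% interval -0.10 to 0.27). Ptgds, the other prostaglandin D synthase, was near the floor, with 11.6 and 14.3 in mTEC-IV against 0 to 40.6 in the other 6 (-0.02, 95% interval -1.31 to 1.26).

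Of the pathway genes called lower, Ggt5, which trims leukotriene C4 to leukotriene D4, had the largest log2 change, with 56.6 and 55.6 in mTEC-IV, against 324 and 308 (mTEC-I), 221 and 248 (mTEC-II), and 129 and 158 (mTEC-III) (-1.95 ± 0.12 SE, adjusted p = 3.0e-09). Its relative Ggt6 (-1.51 ± 0.13, adjusted p = 2.4e-07), the prostaglandin D2 receptor gene Ptgdr (-1.48 ± 0.27, adjusted p = 3.8e-04) and the phospholipase genes Pla2g4c (-1.45 ± 0.20, adjusted p = 3.5e-05) and Pla2g2d (-1.42 ± 0.19, adjusted p = 1.9e-05) were lower too. Pla2g2d was no longer called with the peak nearest to the start (-0.05, adjusted p = 0.972). Ptgdr2, the second prostaglandin D2 receptor gene, differed by 0.39 ± 0.19 (95% interval -0.01 to 0.78, adjusted p = 0.127), and was called higher with array weights (0.39, adjusted p = 0.0325) and without mTEC-I replicate 1 (0.52, adjusted p = 0.00232).

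Since mast cells, myeloid cells, B cells, platelets and neurons also use some of these genes, their markers were read beside them. The counts of each list below stand beside 20.4% of all genes called higher and 12.6% called lower. The tuft list of 38 genes without the 6 had 32 of 33 measured genes higher and none lower, with a median log2 change of 2.53. It was led by Trpm5 (4.55), a taste channel, Siglecf (4.41) and Rgs13 (4.33), and Pou2f3, the regulator gene, changed by 1.83. The member not called was Itpr3 (-0.08). Its summed level was 17134 to 17996 in the mTEC-IV libraries, against 3989 to 5160 in the other 6. This list was drawn up with earlier results of these libraries known and is not independent evidence.

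Of 16 mast cell markers only 6 had a peak, and none of Cpa3, Mcpt4, Cma1, Fcer1a, Ms4a2, Tpsb2, Tpsab1, Mrgprb1, Mrgprb2 and Gata1 had any. Of the 6, Kit (1.28), Gata2 (0.53) and Hdc (0.38) were higher and Cd63 (-0.40) was lower, with sums of 1920 to 2058 in mTEC-IV, against 1096 to 1222 in mTEC-I, 1443 to 1450 in mTEC-II and 1204 to 1329 in mTEC-III. Without Kit the sums were 1002 to 1041 in mTEC-IV, against 790 to 986 in the other 6. Hdc was highest in mTEC-II, with 152 and 185 in mTEC-IV against 232 and 231 in mTEC-II. Of 19 macrophage and dendritic cell markers 11 had a peak. Of these 2 were higher (Mrc1, 0.94, and Flt3, 0.68), or 18.2%, and 3 lower, or 27.3%, led by Itgax (-1.60) and Itgam (-0.93). Flt3 was highest in mTEC-II, with 70.9 and 74.1 in mTEC-IV against 87.9 and 89.6 in mTEC-II. The sum of the 11 was 1516 to 1613 in mTEC-IV, against 1555 to 1818 in the other 6, and Lyz2, Spi1, C1qa, C1qb and C1qc had no peak.

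All 5 measured B cell genes of 9 were higher (Cd79a 2.65, Cd79b 1.76 and Pax5 1.13 the most), with sums of 1463 to 1567 in mTEC-IV, against 631 to 1271 in the other 6. Ms4a1, Blk and Cd22 were among those with no peak. Pax5 overlapped mTEC-II, with 170 and 181 in mTEC-IV against 167 and 189 in mTEC-II. Of 10 platelet markers 3 had a peak, none higher and Itgb3 (-0.39) lower, with sums of 226 to 232 in mTEC-IV, against 191 to 309 in the other 6, and Pf4 and Ppbp had none. Of 15 thymocyte markers 4 had a peak, with Themis (1.79) higher and Cd2 (-0.80) lower and sums of 1317 to 1369 in mTEC-IV, against 1072 to 1502 in the other 6. Of 14 neuron and glia markers 10 had a peak, 4 higher (Nefl 0.99, Tubb3 0.58 and Elavl4 0.43 the most) and Stmn2 (-0.64) lower, with sums of 2767 to 2831 in mTEC-IV, against 2034 to 2663 in the other 6. Tubb3 overlapped mTEC-II, with 65.4 and 62.7 in mTEC-IV against 70.4 and 61.1 in mTEC-II. Dcx, a relative of Dclk1, had no peak.

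Of the medullary and pan-epithelial list, 5 genes were higher, led by Krt8 (with 1108 and 1198 in mTEC-IV, against 499 to 608 in the other 6), and 5 lower, led by Krt5 (-2.66) and Krt14 (-1.95), with sums of 5234 to 5343 in mTEC-IV, against 4626 to 5775 in the other 6. Ptprc, which encodes CD45, the marker that the gates excluded, stood at 269 and 265 in mTEC-IV, against 34.1 and 35.3 (mTEC-I), 38.9 and 48.9 (mTEC-II), and 34.1 and 30.03 (mTEC-III) (log2 change 2.84 ± 0.18 SE, adjusted p = 4.9e-09). The part of any of these cells in the levels of the 6 genes was not tested.

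**Figure D5:**
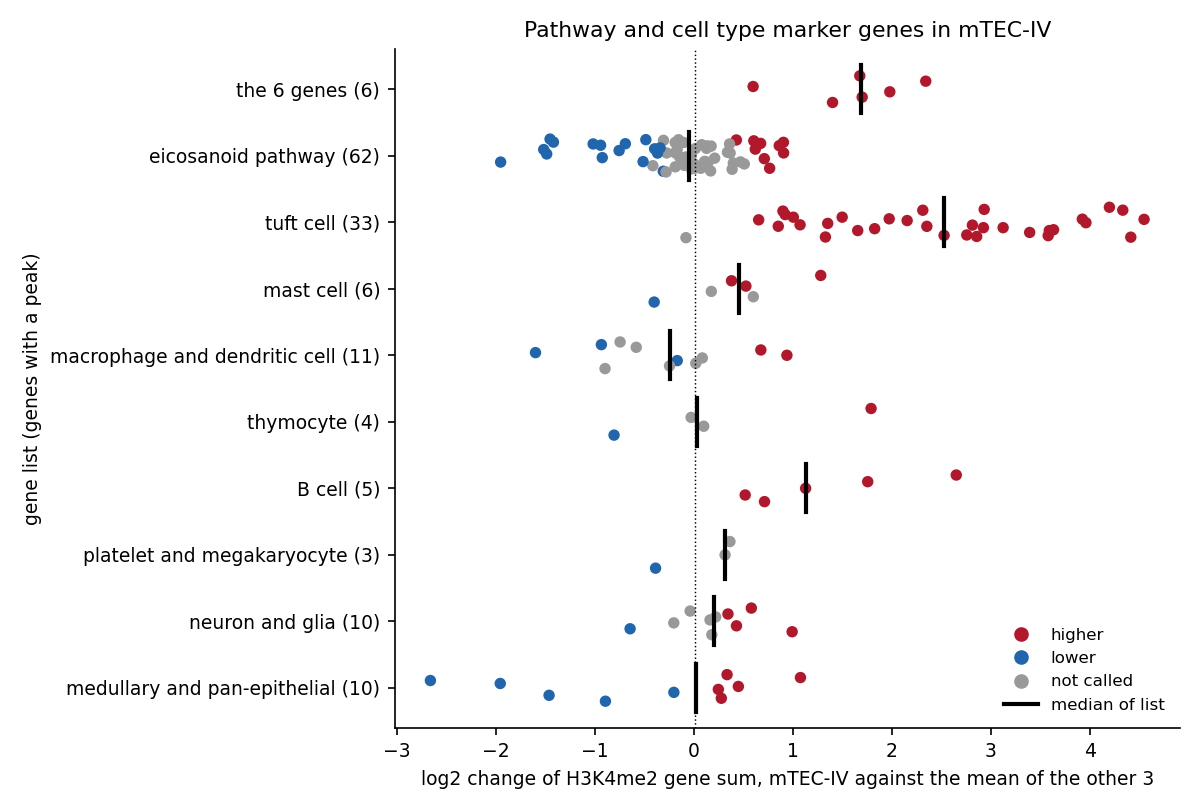
Log2 change of the gene sum in mTEC-IV against the mean of the other 3 populations (horizontal axis) for the 6 genes, for the rest of the eicosanoid pathway and for cell type marker lists, the 6 genes left out of both the pathway and the tuft list (numbers of genes with a peak in parentheses). Points are genes, red higher, blue lower and grey not called, black bars list medians and the dotted line the median of all genes, 0.02. The 6 genes and the tuft list lie to the right, with medians of 1.69 and 2.53, while the pathway list centres on -0.05.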

How the data were processed

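H3K4me2 iChIP libraries of 4 sorted mTEC populations were analysed, 2 each; 8 whole-cell extracts were not analysed here. The members and lists were chosen with earlier results of these data known. The deposited table holds signal over merged peaks that the authors normalised to 10000000 tags per library, per the file headers (HOMER). The authors' peak lists, made per population with replicates combined, per the file headers, give fold over control and p-value for each peak, which served only to describe it. The submitters' processing notes name Picard 1.108, bcl2fastq 2.15.0.4 and the mm9 build, and the labels name no aligner.

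From these, peaks were summed per annotated gene, and log2(level + 1) was fitted with limma-trend (limma 3.58.1, R 4.3.3) over all 8 libraries, with 1 mean per population, for features with a level of at least 10 in at least 2 libraries. P-values are two-sided and adjusted (Benjamini-Hochberg) over all 15738 genes or 29469 peaks, called below 0.05. The values are whole steps of 0.5 tags within a tolerance of 0.1, which allowed count tests as alternatives (edgeR 4.0.16, DESeq2 1.42.0). Other alternatives changed the pseudocount, filter, scaling, array weights, replicate block, peaks summed and each library left out. Fits were tested on simulated data. Depth was 1702103.5 to 15412132.5 tags, and the SD of replicate differences in log2 level over peaks was 0.84 in mTEC-I, against 0.26 to 0.38 in the other 3. Named genes were all 6 members, a fixed set of pathway genes and the 5 largest called changes in each direction of the pathway list, up to 3 called genes per marker list and the 3 genes most alike to each member. Pou2f3, Itpr3 and Ptprc were named after their values had been seen.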

Additional observations from a re-analysis of the deposited data

How the results depend on the processing

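The gene sums of the 6 genes kept their direction and stayed past the threshold in mTEC-IV in all 120 values, from 20 alternatives for each gene. The smallest log2 changes were those of Ltc4s, 0.50 to 0.62. The values of Alox5 and Alox5ap rest mainly on peaks from the mTEC-IV list alone and remain descriptions. With the peak nearest to the start the log2 change was 4.01 for Alox5ap and 3.63 for Alox5, more than 1.5 times the value over all peaks, in peaks merged from the mTEC-IV list alone. Of 450 values for single peaks 430 kept call and direction, and of 720 values for pairs of populations 668 did. The cause of the changes below was not tested, and every value here is limited by 2 libraries per population and by the depth of mTEC-I replicate 2.

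Calls among mTEC-I, mTEC-II and mTEC-III numbered 6 with DESeq2 and 5 with the nearest peak, and 7 to 12 without 1 library. Over all genes, 2104 were higher with the nearest peak and 1992 to 4134 without 1 library, and 3324 were lower with equal totals in peaks and 1070 to 2834 without 1 library. Over all peaks, 4160 to 8997 were higher and 2461 to 5826 lower without 1 library. The highest of these counts came without mTEC-I replicate 1 and the lowest without mTEC-IV replicate 2. Equal totals gave 6126 peaks higher and 6003 lower. Pathway genes higher numbered 5 with the nearest peak, and 5 (without mTEC-IV replicate 1) to 15 (without mTEC-I replicate 1) without 1 library. Where coverage of 50% of the merged peak was asked, the authors' lists held 1 of the 25 peaks for mTEC-I and 4 for mTEC-III, against 2 and 7 with any overlap.

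Directions turned for the following values, of which Alox5ap (-0.34) and Alox5 (-1.11) in mTEC-II against mTEC-I and Pla2g4a (0.91) in mTEC-IV were called over all peaks. For mTEC-II against mTEC-I, Alox5ap was 0.34 with the nearest peak, Alox5 was 0.18 within 20 kb and 0.18 with the nearest peak, and Ltc4s was 0.039 with equal totals, 0.03 with DESeq2 size factors, 0.044 with TMM factors and -0.038 to 0.0 without 1 library. Ptgs1 was 0.028, 0.019 and 0.032 under the same 3 scalings, 0.118 within 20 kb, 0.047 with the nearest peak and -0.252 to 0.191 without 1 library. Hpgds in mTEC-III against mTEC-II was -0.024 to 0.203 without 1 library. In mTEC-IV, Alox5ap peak 2 (35.9 kb before the start) was -0.011 with equal totals and -0.026 to 0.194 without 1 library, and Alox5ap peak 6 (39.4 kb after it) was -0.182 to 0.121. Pla2g4a was -0.458 with the nearest peak. Mgst2 was -0.016 with equal totals and -0.057 both within 20 kb and with the nearest peak. Ptgds was -0.545 to 0.498 without 1 library.

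Same-numbered replicates did not deviate together over peaks (correlations of -0.013 to 0.016 between populations). Whether the numbers pair the libraries is not stated in the labels. Correlations this low cannot exclude it, as counting error also enters these deviations. With the replicate block the calls of the 6 genes stayed at 6 sums, 20 peaks higher and 2 lower, and 18 and 10 pair values, and all genes gave 3187 higher and 1953 lower, all peaks 6872 and 4162, and the pathway 9 and 17.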

Other observations

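Peaks annotated to neighbouring genes on 1 side of Alox5ap and of Dclk1 were also high in mTEC-IV, while the single nearest peak on the other side was low. They were picked after their values had been seen. The pair of peaks nearest before the Alox5ap peaks, both annotated to Uspl1, held 60.5 and 57.95 in the mTEC-IV libraries, against 0 to 10.8 in the other 6, and 69.8 and 65.1 in mTEC-IV, against 0 to 8.89 in the other 6. The pair nearest after the Dclk1 peaks, annotated to Mab21l1, held 50.03 and 54.4 in mTEC-IV, against 1.55 to 15.8 in the other 6, and 62.7 and 72.9 in mTEC-IV, against 5.88 to 28.9 in the other 6. In all 4 the mTEC-IV libraries lay above every other library, as they did for 22.3% of all peaks. The nearest peak after those of Alox5ap, annotated to Medag, held 34.6 and 16.7 in mTEC-IV, against 40.4 to 82.3 in the other 6. The nearest before those of Dclk1, annotated to Sohlh2, held 3.30 and 1.19 in mTEC-IV, against 8.20 to 36.01 in the other 6. In both the mTEC-IV libraries lay below every other library, as they did for 11.4% of all peaks. The next peak on each of these sides overlapped between the groups. That of Tex26, after Alox5ap, held 88.5 and 71.1 in mTEC-IV, against 58.0 to 126.9 in the other 6. That of Spg20, before Dclk1, held 125.4 and 114.7 in mTEC-IV, against 115.8 to 147.8 in the other 6. Around Ltc4s, the nearest peak after its gene, annotated to Maml1, overlapped between populations, with 233 and 219 in mTEC-IV against 173 to 274 in the other 6. The nearest peak after those of Ptgs1, annotated to Pdcl, held 231 and 255 in mTEC-IV, above the 135 to 180 of the other 6.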
